A study of Mus musculus with 12 samples.

Results

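The genes described here had a steady level in vehicle-treated muscle precursor cells through the first days of differentiation, and a different level when the cells received PFI-3. They were chosen by their measured values. FPKM is the number of sequenced fragments scaled by transcript length and by the size of the library, and a gene missing from a library's table was taken as 0. A gene was called flat when its mean FPKM in vehicle was at least 1 at all 3 stages and the largest stage mean was at most 1.25 times the smallest. A flat gene became a member when its FPKM with PFI-3 was at least 1.3 times, or at most 0.769 times, that with vehicle in both replicate pairs, A and B, at 24 h or at 48 h of differentiation. Of 16288 genes listed in any library, 10193 had all vehicle means at 1 FPKM or more, 2093 of those were flat, and 210 were members. With PFI-3, 161 members were higher and 49 were lower, and none met the limit in opposite directions at the 2 stages.

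The cells were C2C12, an immortalized mouse myoblast line that fuses into myotubes when growth medium is replaced by differentiation medium. RNA was sequenced from proliferating cells (labelled GM) and from cells 24 h and 48 h into differentiation (labelled DM 24h and DM 48h). At each stage cells received DMSO, the vehicle, or 50 uM PFI-3, added 12 h ahead and renewed every 24 h, which gave 6 groups of 2 libraries, called biological duplicates in the labels. The cells carried no other genotype or treatment in the labels, and all come from a single established line. The smallest library held 12576374 expected counts and the largest 13658352. All 210 members passed the low-count filter of the test, with mean counts per library between 22.5 and 10482, a median of 486.

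PFI-3 binds the bromodomains of BRM and BRG1, the ATPases of the SWI/SNF chromatin remodelling complexes, and of PB1, a subunit of one form of these complexes. A bromodomain is a protein fold that binds acetylated lysine, as found on histone tails. SWI/SNF complexes move nucleosomes at promoters and enhancers, and in myoblasts they are known for their part in switching on muscle genes during differentiation.

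The flatness limit was met with ratios between the largest and the smallest DMSO stage mean of 1.022 to 1.249, with a median of 1.169. In the count test of DMSO cells at each later stage against proliferating DMSO cells, 32 members at 24 h and 39 at 48 h were called, with no log2 change above 0.39 and 0.40 in size. By the same test, 60.6% and 73.1% of the 12545 genes tested were called. The rule chose members on these same DMSO libraries, so nothing is read from this comparison.

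The shares past the PFI-3 limit are given for flat genes beside those of the 8100 genes that were expressed and not flat, as counts without a test. At DM 24h, 6.4% of flat genes were past the limit upward and 1.53% downward, against 10.57% and 6.32% of genes that were not flat. At DM 48h the shares were 2.87% and 1.29% of flat genes, against 14.09% and 6.21%. In numbers of flat genes, this was 134 upward and 32 downward at the first DM stage, then 60 and 27 at the second. Over all 10193 expressed genes, 9.71% (DM 24h) and 11.8% (DM 48h) met the limit upward, and 5.34% and 5.2% downward. These shares describe the contrast that the rule used.

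Of the higher members, 101 met the limit at DM 24h alone, 27 at DM 48h alone and 33 at both stages. Of the lower members, 22 met it at DM 24h alone, 17 at DM 48h alone and 10 at both. Folds here are geometric means of the ratios of the A and B pairs. The 134 members that were higher at DM 24h had a median fold of 1.44 (1.316 to 3.021), and the 60 at DM 48h had 1.41 (1.307 to 3.267). The 32 lower at DM 24h had a median fold of 0.693 (0.257 to 0.766), and the 27 at DM 48h had 0.655 (0.461 to 0.737). At the stage where they did not meet the limit, 89 of the 101 DM 24h higher members were above DMSO in both pairs at DM 48h, with a median fold there of 1.198. The other stage showed the same sign in both pairs for 24 of 27 members higher at DM 48h, 16 of 22 lower at DM 24h and 12 of 17 lower at DM 48h. Among all expressed genes, both pairs lay above DMSO for 47.3% and below it for 32.8% in the DM 24h libraries, with 55.3% above and 26.6% below in the DM 48h libraries. In the edgeR fit, 114 of the 134 and 48 of the 60 were also called higher, and 28 of the 32 and 21 of the 27 were called lower. Over all genes tested 12.2% were called higher and 11.4% lower in the DM 24h contrast, with 13.4% and 14% in the DM 48h contrast, and nothing is read from this comparison because the rule used it.

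**Figure D1:**
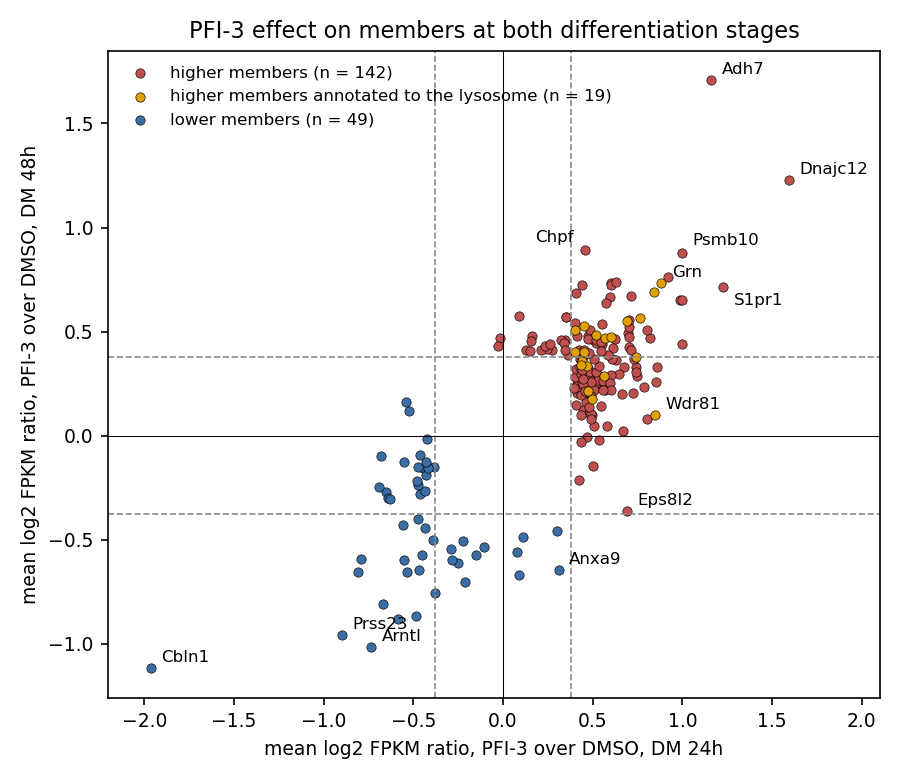
Mean log2 ratio of FPKM with PFI-3 over DMSO (mean of pairs A and B) at DM 24h on the x axis and at DM 48h on the y axis for the 210 members. Each point is a gene, dashed lines mark the 1.3-fold and 0.769-fold limits, and the 19 higher members annotated to the lysosome are in yellow. Members lie mostly in the upper right and lower left, and the rule chose them on these values.

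The limits cut through a continuous range of values. The member nearest inside the upper limit at DM 24h was Nacc2, with folds of 1.387 and 1.301 in pairs A and B, and the nearest flat gene outside was Rps27, with 1.299 and 1.381. At DM 48h these were Nagk, with 1.302 and 1.312, and Abhd14b, with 1.42 and 1.299. On the lower side at DM 24h, Ebp was inside with 0.768 and 0.764 and Psmd1 outside with 0.697 and 0.77. At DM 48h, Lpar3 was inside with 0.575 and 0.767 and Klf10 outside with 0.761 and 0.77. Abhd14b was a member through DM 24h.

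The balance of directions depended on the scale. FPKM ratios of all expressed genes had medians above 0 on the log2 scale, from 0.035 in GM pair B to 0.115 in GM pair A. They were 0.044 and 0.055 in the DM 24h pairs and 0.099 and 0.1 in the DM 48h pairs. Under the FPKM rule, 76.7% of members were higher. The share was 58.9% when each pair's ratios were centred on their median (175 members, 152 of them shared), 63.7% on CPM, counts scaled by library size with edgeR's TMM factors (168, 129 shared), and 54.5% when each library was centred (154, 104 shared).

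Lysosomes are acidic organelles in which hydrolases break down proteins, lipids and sugars delivered by endocytosis and autophagy. A proton pump, the V-ATPase, keeps them acidic, and membrane proteins such as LAMP1 line them. A list of 44 lysosome and autophagy genes held 13 flat genes, of which 7 were higher members (Ctsa, Ctsb, Ctsl, Lamp1, Mcoln1, Sqstm1 and Uvrag) and none was a lower member. Among all 2093 flat genes, 7.69% were higher and 2.34% were lower members. The deposited tables carry Cellular Component terms, and this grouping was made after the values were seen. By these terms, 19 of the 161 higher members (11.8%) and none of the 49 lower members were annotated to the lysosome, against 2.97% of the flat genes not moved and 2.71% of all genes tested. Seen from the flat genes, 19 of 75 with the annotation (25.33%) and 142 of 2018 without it (7.04%) were higher members.

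The hydrolases among them included cathepsin B (Ctsb, a cysteine protease), cathepsin A (Ctsa, a serine carboxypeptidase that also stabilises other lysosomal enzymes) and Ppt1 (which removes fatty acids from proteins). Ctsb stood at 122 and 123.2 FPKM in the 2 DM 24h DMSO libraries and at 199.9 and 196.1 with PFI-3. At DM 48h it stood at 115.4 and 118.4 with DMSO and at 170.1 and 171.8 with PFI-3. In GM, the stage the PFI-3 limit did not use, it stood at 111.5 and 132.2 with DMSO and at 183.8 and 200 with PFI-3. The PFI-3 libraries lay above every DMSO library at all stages, and at the DM stages the rule chose the gene on these values. In GM the gene rose by a log2 fold change of 0.56 ± 0.069 (SE, n = 2 per group, edgeR adjusted p = 0.000499). This SE and those below rest on a spread shared over all 12 libraries. Ctsa stood at 54.8 and 51.56 FPKM with DMSO and at 90.37 and 90.08 with PFI-3 at DM 24h, and at 60.32 and 60.43 against 90.48 and 88.16 at DM 48h. In GM, its DMSO libraries were spread, at 45.51 and 62.54, and the PFI-3 libraries were above both, at 76.55 and 76.8 (log2 fold change 0.41 ± 0.096, edgeR adjusted p = 0.0187).

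Progranulin (Grn), a secreted protein that is also sorted to lysosomes, had the highest fold of the 19 at DM 24h. Its FPKM was 97.48 and 96.02 with DMSO and 184.8 and 172.1 with PFI-3 at DM 24h, and 97.46 and 94.82 against 159.2 and 160.2 at DM 48h. In GM it was 65.66 and 95.83 with DMSO and 138.6 and 131.3 with PFI-3, with no overlap (GM log2 fold change 0.65 ± 0.112, edgeR adjusted p = 0.00441). The DM groups of Grn did not overlap either, but the rule chose the gene on those values. Lamp1, a glycoprotein of the lysosomal membrane, stood at 276.1 and 278 FPKM with DMSO and at 411 in both libraries with PFI-3 at DM 24h. At DM 48h it stood at 314.1 and 318 against 446.8 and 429.2, and in GM at 267 and 326.8 against 374.8 and 386.4. Its GM change of 0.26 ± 0.070 had an edgeR adjusted p of 0.0334, which became 0.11 without library A of GM DMSO and 0.0868 without library B of GM PFI-3. Glmp, a membrane glycoprotein of lysosomes, was at 75.99 and 75.19 FPKM against 134.1 and 136.3 at DM 24h, and in GM at 60.33 and 89.4 against 100.4 and 108.8 (edgeR adjusted p = 0.0514). Epdr1, a lysosomal lipid-binding protein, was at 16.71 and 16.89 against 23.01 and 22.91 at DM 24h. In GM, Epdr1 was at 19.22 and 19.35 with DMSO and at 29.68 and 30.68 with PFI-3, well apart (log2 fold change 0.55 ± 0.066, edgeR adjusted p = 0.000444).

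Channels, pump parts and traffic proteins made up much of the rest. Mcoln1, the calcium channel TRPML1 of lysosomes, was at 21.97 and 22.03 FPKM with DMSO and at 29.5 and 30.59 with PFI-3 at DM 24h. In GM its groups overlapped, at 16.18 and 22.35 against 30.1 and 22.04. Clcn7 and Ostm1, the 2 subunits of the lysosomal chloride-proton exchanger, had DM 24h folds of 1.318 and 1.475. Sqstm1, the autophagy receptor p62, was at 260.6 and 267.2 FPKM against 375.5 and 368.5 at DM 24h and at 270.2 and 275.4 against 311.5 and 305.1 at DM 48h, a smaller gap. Uvrag, a Beclin 1 partner in autophagy, had folds of 1.517 and 1.389 at the 2 stages. Of V-ATPase subunits and accessory proteins, a family looked at after the values were seen, 4 of 5 flat genes were higher members: Atp6v0c, Atp6v0e, Atp6v1b2 and Atp6ap1, with DM 24h folds of 1.356, 1.346, 1.333 and 1.207. Higher members without the annotation that also work in this system were Creg1, a glycoprotein of the endosome and lysosome, Slc36a1, an amino acid exporter of lysosomes, and Ctsl, cathepsin L. Ctsl had fractional counts in many libraries, so reads shared with other genes enter its values.

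Over the 19 annotated members, folds at DM 24h ran from 1.318 to 1.843 (median 1.433) and at DM 48h from 1.07 to 1.661 (median 1.32). In GM they ran from 1.062 to 1.7 with a median of 1.262, and both pairs were above 1 for 17, where 45.8% of expressed genes had this. Both PFI-3 libraries lay above both DMSO libraries for 15, all but Wdr81, Vps18, Uvrag and Mcoln1, where 33.6% of expressed genes did. Of the 340 tested genes with the lysosome annotation, members and others together, 183 were above 1 in both GM pairs. The edgeR test called 40 of these 340 (11.8%) higher in GM. Of the 19 annotated members it called 6 higher in GM, among them Ctsa, Ctsb, Epdr1, Grn and Lamp1, against 5.46% of all genes. Leaving out a GM library gave 4 (without library A of DMSO) to 10 (without library B of DMSO). For the fits without a library, the share of all genes called is not given here, so nothing is read from those counts. Of the 43 listed lysosome and autophagy genes that were tested, members and others together, 11 rose in GM and 25 at DM 24h. At DM 48h, 11 rose and 5 fell. Over all genes tested, 12.2% rose in the DM 24h contrast, and 13.4% rose and 14% fell in the DM 48h contrast, so the 5 that fell were no larger a share than over all genes. Hexa, a subunit of beta-hexosaminidase and not a flat gene, rose at all 3 stages, from 59.74 ± 1.46 to 105.8 ± 1.12 FPKM (SD, n = 2) at DM 24h. The 5 that fell at DM 48h were Map1lc3a, Tfeb, Ulk1, Ulk2 and Wipi1, none of them flat. Tfeb, a master regulator of lysosomal genes, was at 14.64 ± 0.686 FPKM with DMSO and 8.75 ± 1.03 with PFI-3 there (SD, n = 2, log2 fold change -0.82, edgeR adjusted p = 0.000978). Tfe3, its relative, was at 19.79 ± 0.276 and 30.11 ± 0.841 at DM 48h (log2 fold change 0.49, edgeR adjusted p = 0.0029). At DM 24h neither was called, with log2 fold changes of -0.275 for Tfeb and 0.27 for Tfe3 (edgeR adjusted p = 0.225 and 0.0596). Neither was called in GM (edgeR adjusted p = 0.739 and 0.44).

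**Figure D2:**
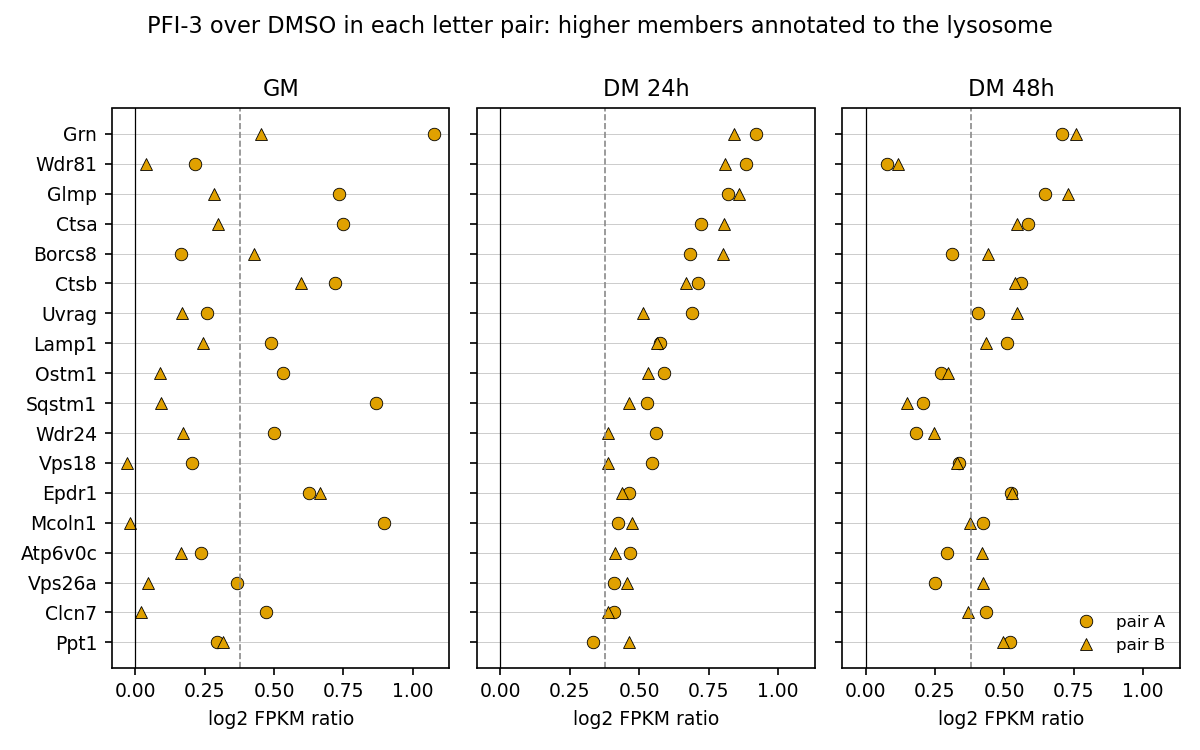
Log2 ratio of FPKM with PFI-3 over DMSO in each letter pair (circles A, triangles B) for 18 of the 19 higher members annotated to the lysosome, at GM, DM 24h and DM 48h. The dashed line marks the 1.3-fold limit that chose members at the DM stages. In GM the A ratios were wider spread than the B ratios, and at DM 24h every point lies above 0.

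The promoters of these genes are shown because TFEB and related factors are known to bind a short palindrome, CACGTG, in promoters of lysosomal genes. RefSeq promoter windows on GRCm38.p6, from 250 bases before to 50 bases after a listed start, were found for 16 of the 19. CACGTG, which reads the same on both strands, was in a window of 6 of the 16: Clcn7, Ctsa, Lamp1, Mcoln1, Vps26a and Wdr81. The stretches below lie before the outermost listed start, on the gene's strand, with each CACGTG in capitals. For Ctsa no stretch is printed, since its matches lie after the outermost start.
Lamp1, chr8:13159085-13159160, plus strand, 4 copies between 61 and 15 bases before the start: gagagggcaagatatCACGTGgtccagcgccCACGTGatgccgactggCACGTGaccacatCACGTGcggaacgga
Mcoln1, chr8:3500433-3500494, plus strand, 2 copies: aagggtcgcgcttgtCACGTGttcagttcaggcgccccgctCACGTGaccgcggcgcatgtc
Clcn7, chr17:25133361-25133390, plus strand: gcctccgtcgtcagtCACGTGggcaccgat
Wdr81, chr11:75454721-75454756, minus strand: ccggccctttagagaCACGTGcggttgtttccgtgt
Vps26a, chr10:62486967-62487002, minus strand: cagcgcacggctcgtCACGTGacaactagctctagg

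Of the higher members with a window, 26 of 125 (20.8%) held CACGTG, against 4 of 43 lower members (9.3%), 189 of 1549 flat genes not moved (12.2%) and 1186 of 10011 genes tested (11.8%). Of all 32851 promoter windows in the table, 7.2% held it. The share was 37.5% (6 of 16) in the annotated higher members and 18.3% (20 of 109) in the other higher members, among them Klf4, Per1, Slc36a1, Atp6v0e and Ctsl. It was 10.6% (5 of 47) in flat lysosome-annotated genes that were not moved, and 17.2% (46 of 267) in all tested genes with the lysosome annotation. The other motifs were searched on both strands in the same windows. GCGTG, whose letters can overlap CACGTG, was in 60.0% of higher members, 58.1% of lower members and 60.2% of flat genes not moved. TGACNNNGC was in 16.8%, 16.3% and 16.0%, and CCAAT in 41.6%, 34.9% and 40.3%. GGGCGG was in 75.2%, 86.0% and 72.2%, and TGANTCA in 4.8%, 7.0% and 4.3%. TGACGTCA was in 1 of 125 higher members, 0 of 43 lower members and 85 of 1549 flat genes not moved, and the CArG box in 0, 1 and 23. Of all windows, 32.4% held GCGTG, 12.4% TGACNNNGC, 37.4% CCAAT, 35.7% GGGCGG, 7.8% TGANTCA, 1.8% TGACGTCA and 1.6% the CArG box. A match describes letters in a window and is not evidence of binding.

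Vesicle traffic gave further higher members. TBC proteins switch off Rab GTPases, and 4 of 9 flat TBC and SGSM genes were higher members and none lower (Tbc1d2b, Tbc1d9b, Tbc1d14 and Sgsm3), a family looked at after the values were seen. Tbc1d9b was at 19.32 and 18.44 FPKM with DMSO and at 28.19 and 25.83 with PFI-3 at DM 24h, and at 14.69 and 16.53 against 24.04 and 23.88 in GM, where it rose (log2 fold change 0.52 ± 0.074, edgeR adjusted p = 0.00132). Tbc1d2b also rose in GM (0.37 ± 0.076, edgeR adjusted p = 0.0101). Rab43, a GTPase of the Golgi, was at 9.51 and 10.12 against 17.83 and 16.38 at DM 24h and rose in GM (0.54 ± 0.087, edgeR adjusted p = 0.00276), while its DM 48h fold was 1.057. Of sorting nexins and VPS proteins, 4 of 25 flat genes were higher (Snx19, Snx33, Vps18 and Vps26a) and 1 was lower (Snx7). Zinc finger genes gave 7 higher members of 87 flat genes, 8.05%, which is near the 7.69% of all flat genes.

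A metabolic enzyme had the highest fold at DM 48h. Adh7, an alcohol dehydrogenase that also oxidises retinol, was at 8.48 and 8.59 FPKM with DMSO and at 27.95 and 27.81 with PFI-3 at DM 48h. At DM 24h it was at 10.94 and 10.32 against 23.49 and 24.04, and in GM at 8.84 and 11.21 against 20.92 and 20.18. The groups were apart at all 3 stages, although the rule chose the gene on the DM values. In GM Adh7 rose (log2 fold change 0.94 ± 0.091, edgeR adjusted p = 0.000106). Abhd14b, an alpha/beta hydrolase, was at 6.86 and 6.33 against 12.48 and 13.83 at DM 24h and rose in GM (0.67 ± 0.120, edgeR adjusted p = 0.00534). Gnpda1, which converts glucosamine 6-phosphate to fructose 6-phosphate, was at 18.78 and 18.41 against 37.13 and 36.45 at DM 24h, and its GM groups overlapped, at 16.09 and 25.19 against 25.99 and 24.01. Cbr1, a carbonyl reductase, and Nfe2l2, which encodes the oxidative stress factor NRF2, were the 2 higher members among 4 flat genes of the NRF2 list, with DM 24h folds of 1.598 and 1.443. The GM changes of these 2 members were not called (edgeR adjusted p = 0.0962 and 0.425). The list as a whole, members and others together, had 29 tested genes. In GM, edgeR called 14 of them higher and 1 lower, where 5.46% of all genes were higher and 6.15% lower. The DM 24h contrast called 14 of the list higher and 1 lower, against 12.2% and 11.4% of all genes. For the DM 48h contrast the calls were 15 higher and 3 lower, against 13.4% and 14%. Ebp, a sterol isomerase of cholesterol synthesis, was a lower member at DM 24h, at 35.5 and 33.16 against 27.26 and 25.32 FPKM.

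Receptors and signalling proteins were members in both directions. S1pr1, a receptor for sphingosine 1-phosphate, was at 7.12 and 7.57 FPKM with DMSO and at 16.77 and 17.63 with PFI-3 at DM 24h, and at 9.59 and 8.6 against 15.08 and 14.77 at DM 48h. In GM it was at 8.26 and 8.47 against 10 and 13.36, apart but not called (log2 fold change 0.38 ± 0.122, edgeR adjusted p = 0.0636). Sgpl1, the lyase that degrades the same lipid, was a higher member with a fold of 1.322 at DM 24h. Lpar3, a receptor for the related lipid lysophosphatidic acid, was a lower member, at 2.23 and 2.58 against 1.4 and 1.37 at DM 24h and at 2.16 and 2.45 against 1.46 and 1.52 in GM. Its GM fall of -0.72 ± 0.191 had an edgeR adjusted p of 0.0309, which ran from 0.0575 to 0.0835 when any of the 4 GM libraries was left out. Arrb1, beta-arrestin 1, was at 3.22 and 3.12 against 5.97 and 5.5 at DM 24h and rose in GM (0.83 ± 0.152, edgeR adjusted p = 0.00601). Plxnb1, the semaphorin 4D receptor, was at 5.4 and 5.44 FPKM with DMSO and at 3.04 and 2.85 with PFI-3 at DM 48h, and at 3.94 and 5.48 against 3.53 and 3.17 in GM, where it fell (-0.59 ± 0.115, edgeR adjusted p = 0.00836). Met, the receptor for hepatocyte growth factor, was at 23.52 and 23.15 against 15.8 and 16.16 at DM 48h. Its GM fall (-0.29 ± 0.076, edgeR adjusted p = 0.0293) was not called without library A of GM DMSO (0.0923) or library B of GM PFI-3 (0.125).

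Sntb2, the dystrophin-associated protein beta-2 syntrophin, was at 7.16 and 6.79 against 14.17 and 13.71 FPKM at DM 24h, with a GM change of 0.15 ± 0.091 that was not called (edgeR adjusted p = 0.3). Opn3, an opsin, was a lower member at both stages (folds 0.63 and 0.57), as was Prr5, a part of the mTORC2 kinase complex (0.571 and 0.635). Siah2, a ubiquitin ligase, was lower at DM 24h (0.62). Their GM changes were not called. Crip2, an abundant LIM-domain protein, was at 448 and 460 against 325 and 327.9 FPKM at DM 24h. In GM it was at 448.2 and 448 with DMSO and at 300.6 and 325.5 with PFI-3, and it fell (log2 fold change -0.60 ± 0.064, edgeR adjusted p = 0.000196).

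Among transcription regulators, nuclear receptors and factors of the clock were members. Nr3c1, the glucocorticoid receptor, was at 13.31 and 13.65 FPKM with DMSO and at 23.14 and 21.83 with PFI-3 at DM 48h, and at 12.13 and 14.77 against 16.62 and 19.43 in GM. Its GM rise of 0.33 ± 0.090 had an edgeR adjusted p of 0.0373, with 0.148 without library A of DMSO and 0.171 without library B of PFI-3. Vdr, the vitamin D receptor, was higher at both DM stages (folds 1.629 and 1.47). Klf4, a zinc finger factor, was higher at DM 24h, at 11.42 and 11.38 against 15.95 and 16.09, and not at DM 48h (fold 1.058). Klf4 rose in GM, from 9.09 and 12.14 to 17.46 and 19.38 (log2 fold change 0.70 ± 0.106, edgeR adjusted p = 0.00189). Crem, a factor of the cAMP response, was at 2.08 and 2.15 against 3.3 and 3.02 at DM 24h and had the largest GM rise of the called members, a log2 fold change of 1.16 ± 0.212 (edgeR adjusted p = 0.0059), although its listed transcript length differed by over 10% between libraries.

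The clock list held 4 flat genes, and its 18 tested genes had median log2 fold changes of 0.083 at DM 24h and -0.03 at DM 48h (edgeR). The flat clock genes Clock and Nr1d2 were not moved. Arntl, which encodes the activator BMAL1, was a lower member at both DM stages, and Per1, a repressor of the same loop, was a higher member at DM 24h. Arntl was at 7.15 and 6.45 FPKM with DMSO and at 4.15 and 4.02 with PFI-3 at DM 24h, and at 6.7 and 6.71 against 3.32 in both libraries at DM 48h. In GM its ratio pointed the other way in both pairs, at 5.46 and 6.09 against 5.96 and 8.11, with overlapping groups (log2 fold change 0.18 ± 0.139, edgeR adjusted p = 0.414). Without library B of GM PFI-3 the GM value was -0.065. Per1 was at 6.4 and 7.68 against 10.63 and 10.03 at DM 24h, and its GM groups overlapped, at 5.69 and 9.07 against 6.8 and 9.09.

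Matrix genes gave laminin chains in both directions. Laminins are trimers of the basement membrane, and beta-1 and beta-2 are alternative chains of the trimer. Lamb1 was at 65.74 and 65.49 FPKM with DMSO and at 48.27 and 46.56 with PFI-3 at DM 24h, and at 77.55 and 76.43 against 50.72 and 47.64 at DM 48h. Lamb2 was at 23.22 and 24.44 against 34.53 and 33.69 at DM 24h, and at 22.06 and 24.47 against 33.01 and 30.34 at DM 48h. In GM, Lamb1 was at 79.53 and 61.13 against 55.73 and 55.77 and fell (-0.44 ± 0.111, edgeR adjusted p = 0.0255, and 0.0754, 0.0631 and 0.0569 without library A of DMSO, A of PFI-3 and B of PFI-3). In GM, Lamb2 was at 19.55 and 22.83 against 19.53 and 21.07, overlapping, and was not called (-0.16 ± 0.081, edgeR adjusted p = 0.226). Of the 10 laminin chain genes tested, 1 rose and 4 fell at DM 24h, and 1 rose and 6 fell at DM 48h, where over all genes 12.2% rose and 11.4% fell in the first contrast and 13.4% rose and 14% fell in the second. Chpf and Ext2, enzymes that polymerise chondroitin sulfate and heparan sulfate, were higher members. Chpf was at 25.85 and 24.05 against 46.72 and 45.7 at DM 48h and rose in GM, from 28.31 and 27.81 to 41.59 and 38.63 (0.41 ± 0.077, edgeR adjusted p = 0.00649).

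Secreted proteases were found on both sides. Prss23, a serine protease, was the lower member with the lowest fold at both stages among genes whose counts averaged 50 or more, apart from Arntl at DM 48h. It was at 43.04 and 44.51 FPKM with DMSO and at 24.43 and 22.62 with PFI-3 at DM 24h, and at 37.72 and 41.84 against 19.73 and 21.21 at DM 48h. In GM it was at 39.79 and 30.64 against 26.95 and 24.19 and fell (-0.57 ± 0.123, edgeR adjusted p = 0.0141, and 0.0516 without library B of PFI-3). Mmp28, the matrix metalloprotease epilysin, was a higher member at low level, at 1.54 and 1.38 against 2.7 and 2.81 at DM 24h and at 0.87 and 1.58 against 1.99 and 2.97 in GM. Its GM rise of 0.94 ± 0.250 had an edgeR adjusted p of 0.0322, with 0.148 without library A of DMSO and 0.159 without library B of PFI-3. Psmb10, a catalytic subunit of the immunoproteasome, was at 7.46 and 7.17 against 15.65 and 13.61 at DM 24h, and Psmd11, a lid subunit of the standard proteasome, was a lower member (fold 0.719). Psmb10 was at 7.64 and 6.25 against 9.79 and 6.45 in GM, overlapping, with a change of 0.12 ± 0.198 (edgeR adjusted p = 0.729) that was -0.051 without library B of DMSO and -0.201 without library A of PFI-3. Bad, which promotes apoptosis, was a higher member at DM 24h (fold 1.395) and rose in GM (0.48 ± 0.088, edgeR adjusted p = 0.0059). Bcl2, which opposes it, was a lower member at DM 48h at 1.35 and 2.04 against 0.97 and 1.24 FPKM, a level at which the listed length also varied.

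**Figure D3:**
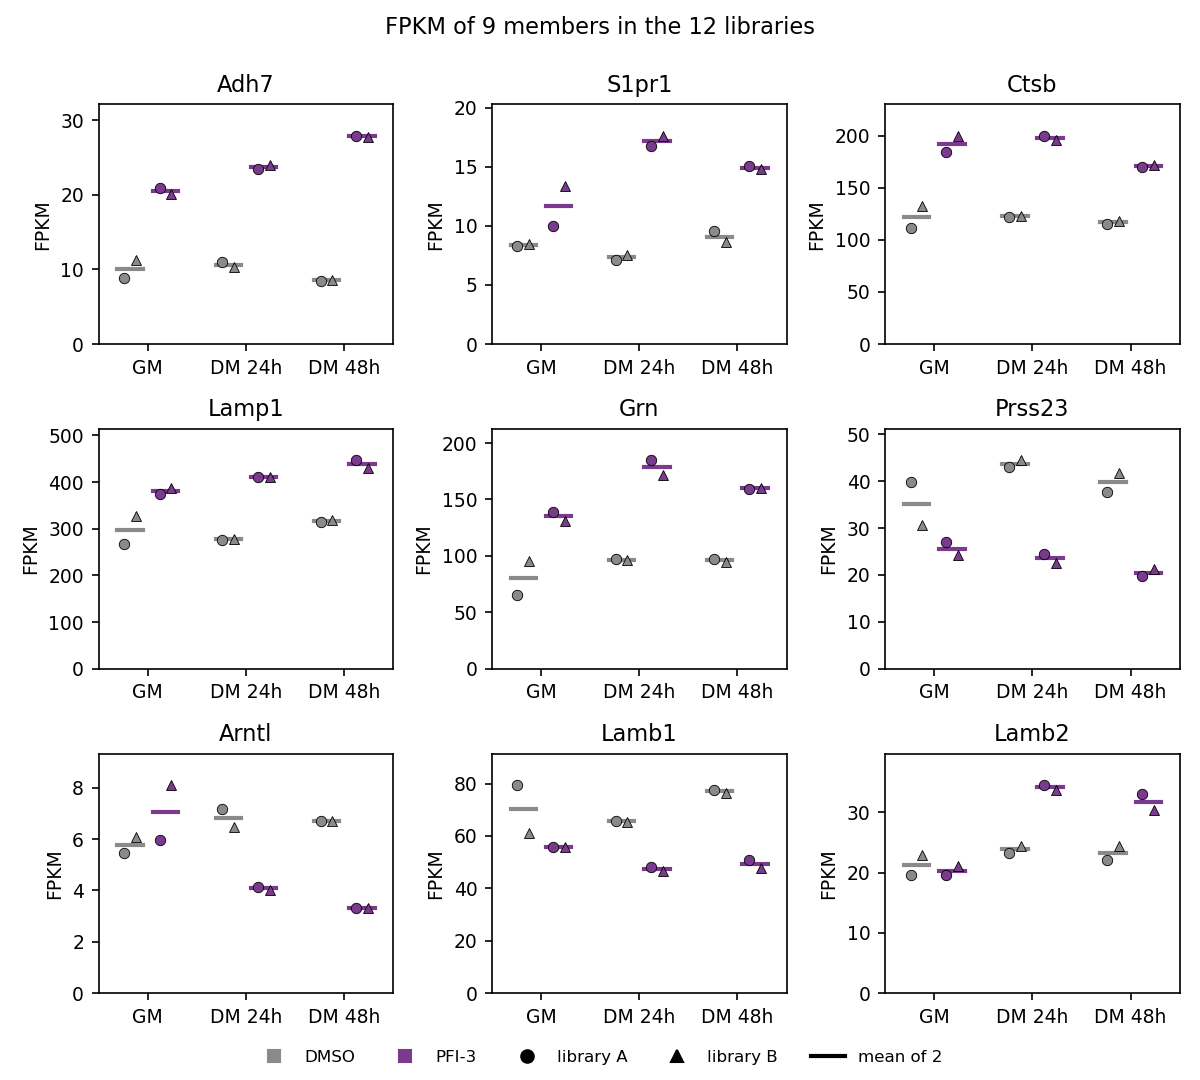
FPKM of 9 members in each of the 12 libraries by stage, with DMSO in grey, PFI-3 in purple, circles for library A, triangles for library B and a bar for the mean of 2. At the DM stages, where the rule chose the genes, the groups of all 9 are apart. In GM the groups of Arntl and Lamb2 overlap.

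The extremes include genes that the naming rule set aside for low counts. Dnajc12, a co-chaperone, had a fold of 3.021 at DM 24h, at 1.16 and 1.07 against 3.53 and 3.21 FPKM, and Cbln1, a secreted synapse organiser, had the lowest, 0.257, at 1.4 and 1.73 against 0.42 and 0.38. In all, 9 members had a mean under 50 counts and 14 had fractional counts in over 25% of libraries, among them Dynlt1b and Dynlt1c, near copies whose reads the counting may split. Gm20594, a predicted gene, was a lower member at DM 24h and had a GM log2 fold change of -1.17 ± 0.284 (edgeR adjusted p = 0.0225), but its GM DMSO libraries were at 138.1 and 306.7 FPKM, and the call was lost without library B of DMSO (0.0791) or A of PFI-3 (0.086). Mad1l1, a spindle checkpoint protein, was lower at DM 48h (fold 0.592) and 5730559C18Rik at both stages (0.716 and 0.549).

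Proliferating cells gave the contrast that the PFI-3 limit did not use, although the rule read the same 2 GM DMSO libraries for flatness. The main fit took its spread from all 12 libraries, among them the DM libraries on which the rule asked both pairs to agree. The shares called in GM are therefore not independent of the rule. In GM, 41 of the 161 higher members (25.5%) were called higher by edgeR and none lower, where 5.46% of all 12545 genes were called higher and 6.15% lower. Of the 49 lower members, 12 (24.5%) were called lower and none higher. Among the 1883 flat genes that were not moved, 35 (1.9%) were called higher and 72 (3.8%) lower. The median GM log2 fold change was 0.196 for higher members, -0.187 for lower members, -0.03 for flat genes not moved and -0.01 for all genes tested. At an unadjusted p under 0.05, 71 higher members were higher and none lower, and 18 lower members were lower and 2 higher, by edgeR, where 12.8% of all genes were higher and 15.2% lower. DESeq2 called 31 higher members higher and none lower, and 9 lower members lower and 1 higher, against 3.74% higher and 5.53% lower of the 11857 genes to which it gave an adjusted p. On FPKM, 32 higher members passed 1.3-fold in both GM pairs, where 5.38% of the expressed genes did, and 4 lower members passed 0.769-fold, where 2.17% did. Both GM PFI-3 libraries lay above both DMSO libraries for 117 of 161 higher members (33.6% of expressed genes) and below for 20 of 49 lower members (14.2% of expressed genes).

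Members that met the limit at both DM stages had the larger share of GM calls: 18 of 33 higher and 5 of 10 lower. For members of DM 24h alone it was 19 of 101 and 5 of 22, and for DM 48h alone 4 of 27 and 2 of 17. These shares were not compared by a test.

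The GM calls rest on a spread shared over all 12 libraries, and the GM pairs were wider apart than the others. When only the 4 GM libraries were fitted, no member was called by edgeR, with 42 higher members higher and 9 lower members lower at an unadjusted p under 0.05, and 16 genes of 11656 were called in each direction. With the library letter as a replicate block in the fit of the 4 GM libraries, 24 members were called higher and 6 lower. The share of all genes called is given here neither for this fit nor for the next, so nothing is read from the counts. Without library A of GM DMSO, 25 members were called higher and 6 lower.

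**Figure D4:**
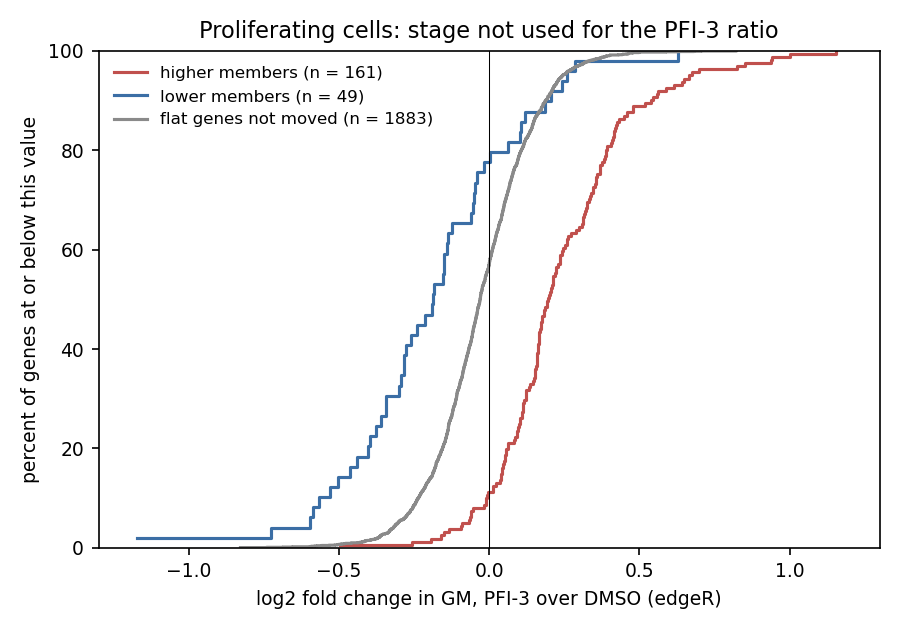
Cumulative distribution of the edgeR log2 fold change in GM, PFI-3 over DMSO, for higher members (red), lower members (blue) and flat genes not moved (grey); the y axis is the percent of genes at or below each value. The medians are 0.196, -0.187 and -0.03.

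Of 40 gene lists and families, 17 held a member and 23 held none. Lists with no member included the contractile apparatus, S phase, SWI/SNF subunits and other bromodomain proteins, with 0, 0, 3 and 5 flat genes. The remaining members on lists were Ern1, the sensor IRE1 of the unfolded protein response (higher at DM 24h, 6.59 and 7.55 against 9.25 and 10.23 FPKM), and Gdf11, a ligand of the TGF-beta family (higher at DM 48h, 9.98 and 9.22 against 13.77 and 12.11).

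Markers of cell identity were read beside these results. The myoblast markers Cdh15, Des, Myf5 and Myod1 were expressed at all stages. The 6 muscle markers summed to 291.56 and 322.63 FPKM with DMSO and to 205.49 and 262.02 with PFI-3 in GM. At DM 24h they summed to 1552.57 and 1555.21 with DMSO and to 934.4 and 914.48 with PFI-3, and at DM 48h to 3417.55 and 3349.46 against 2607.21 and 2601.15. Fibroblast markers, of which Col1a1 and Pdgfra were expressed, summed to 7.11 and 8.28 against 4.32 and 5.05 in GM, to 72.04 and 70.66 against 16.19 and 16.7 at DM 24h, and to 101.72 and 98.84 against 27.61 and 26.96 at DM 48h. The 4 neuron markers, of which Tubb3 was expressed, summed to between 4.07 and 40.33 FPKM and were lower with PFI-3 at every stage. The part of these shifts in the member values was not tested. Macrophages are rich in lysosomes. Their markers Ptprc and Csf1r were at most 0.03 and 0.15 FPKM in any library, Adgre1 was listed in none, and Cd68, itself a lysosomal membrane protein, was between 0.74 and 7.85. The macrophage list summed to 4.32 and 2.18 FPKM with DMSO and 4.34 and 7.99 with PFI-3 in GM. It summed to 0.78 and 1.46 against 2.17 and 2.49 at DM 24h, and to 1.54 and 1.0 against 1.56 and 1.62 at DM 48h. The PFI-3 sums lay above the DMSO sums at each stage, the direction of the lysosomal members. Only Cd68 of this list was expressed, so the sums cannot tell macrophages apart from a change in that lysosomal gene. The part of this in the member values was not tested. Endothelial, adipocyte, osteoblast and epithelial markers each summed to under 1 FPKM in every library. No marker was a member. In bulk samples, fewer cells of a type and less RNA per cell cannot be told apart.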

How the data were processed

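RNA of 12 C2C12 libraries was analysed from 1 deposited table per library. Expected counts and FPKM per gene, and transcript lengths, are the authors' values, per the file headers. The submitters' processing notes name mm10, HISAT, StringTie, Cufflinks, Bowtie, RSEM and DESeq2 without roles or versions. Which tool made which column is not given in the sources used here. Replicates were not pooled.

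The deposited expected counts were rounded and fitted with edgeR 4.0.16 (R 4.3.3, limma 3.58.1): TMM scaling, filterByExpr (12545 genes kept), a quasi-likelihood model of 6 groups over all 12 libraries and Benjamini-Hochberg adjustment over all genes tested, with calls at an adjusted p under 0.05. DESeq2 1.42.0 and limma on log2(FPKM + 1) and log2(FPKM + 0.1) were alternatives. The script was tested on simulated data. Standard errors are the size of the log2 fold change divided by the square root of edgeR's F statistic, with n = 2 per group. They and the p-values of the main fit rest on a spread shared over all 12 libraries. They do not measure the spread of the 4 GM libraries alone, which were wider apart. The member rule was applied to the FPKM values as deposited. The deposited Gene Ontology terms gave the lysosome annotation.

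Members and gene lists were chosen with earlier results of these data known. The genes named by rule were the members with the highest and lowest values at each stage and over both, the largest GM calls and the members on lists, leaving out means under 50 counts and genes with fractional counts in over 25% of libraries. Other members were named after their values were seen. The values of 1 lysosome-annotated member are not reported here. Promoters come from RefSeq, GRCm38.p6.

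The letters A and B come from the titles, which do not say what they stand for. Over 10656 genes, the correlation between the deviations of libraries that share a letter was 0.509 for GM, 0.036 for DM 24h and 0.052 for DM 48h. Given the low DM values, the main fit of all stages did not take the letters to pair the samples. The GM value does not give this reason for GM, and fits with the letter as a replicate block are given for comparison. The remaining steps used Python 3.11.15 with pandas 2.3.3, numpy 2.4.6 and matplotlib 3.10.9.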

Additional observations from a re-analysis of the deposited data

Results flagged for a closer look

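Members whose ratio pointed the other way in both pairs at a stage other than the one that chose them are listed here. The difference between stages was not tested, and values are mean log2 ratios of FPKM with PFI-3 over DMSO at the other stage. Lower members of DM 48h that were above DMSO at DM 24h were Anxa9 (0.309), Lrrc75b (0.3), 3110040N11Rik (0.114) and Adamts6 (0.088). Lower members of DM 24h above DMSO at DM 48h were Morc4 (0.163) and Spsb4 (0.117). Higher members of DM 24h below DMSO at DM 48h were Eps8l2 (-0.361, against 0.692 at DM 24h), Dcaf17 (-0.213), Dtd1 (-0.145) and Dynlt1b (-0.021).

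In GM, higher members of DM 24h that were below DMSO in both pairs were Bdkrb1 (-0.553, against 0.748), a bradykinin receptor, Hoxa10 (-0.159), Lnx2 (-0.094) and Lamb2 (-0.059). Lower members that were above DMSO in GM were Lrrc75b (0.788, against -0.46 at DM 48h), Spsb4 (0.375), Alkbh2 (0.355), Ttc7 (0.34), Arntl (0.27, against -0.733 at DM 24h and -1.014 at DM 48h), Ythdc2 (0.22), Jmjd4 (0.205) and Psmd11 (0.083). FPKM ratios of all expressed genes in GM had medians of 0.115 and 0.035 in pairs A and B, so small positive values lie near the shift of the scale.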

How the results depend on the processing

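The number of members followed the limits: 566 with flatness within 1.5-fold, 44 within 1.1-fold, 474 with a ratio of 1.2, 53 with a ratio of 1.5, and 328 to 363 from the libraries of 1 letter alone. It stayed within 1.5 times of 210 under the minimum of 5 FPKM (151), CPM, centring, all 4 ratios of a stage (164) and ratios of group means (313). Genes chosen on 1 letter passed the limit in the other in 37.2% to 61.8% of cases, against 1.86% to 11.5% of all flat genes. Both letters belong to libraries that the rule used, so nothing is read from these shares.

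In GM, 41 members were called higher and 12 lower. Only the lower count moved with limma, to 5 under both pseudocounts. In the fit of the 4 GM libraries both counts were 0, and with the replicate block in that fit they were 24 and 6. With the replicate block in the fit of 12 libraries they were 40 and 12. Leaving out a GM library gave 25 to 60 higher and 6 to 16 lower. Other settings gave 32 to 41 and 9 to 13. The DESeq2 calls upward were 31 of the higher members and 1 of the lower members. For the fits with a block or without a library, shares over all genes are not given here, so nothing is read from their counts. Arntl in GM reversed to -0.065 without library B of PFI-3 (-0.065 to 0.398 over the 4 libraries), and Psmb10 to -0.051 and -0.201 without library B of DMSO and A of PFI-3 (-0.201 to 0.39); the cause was not tested. Depth was alike in all libraries, and each group had 2.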
